A study of Mus musculus with 8 samples.

Results

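Cells build nucleotides from serine, one-carbon units, ribose phosphate and aspartate, and the genes of that route are described here in common lymphoid progenitors (CLP) of the mouse. CLP are marrow progenitors of the B, T and natural killer lineages. The gene list holds 39 symbols, chosen by function from the serine, folate, methionine, purine and pyrimidine pathways. Of the 39, 37 were matched to a row among the 39179 gene rows of the files through the GENCODE vM21 annotation. The ID of Pnp in that annotation had no row, and Samhd1l is not a symbol of it. A row for Pnp under another ID was not looked for, and neither gene was analysed here. Dhodh, the mitochondrial enzyme that oxidises dihydroorotate, lay at scaled values of 4.78 to 7.25 and was too low to test, so 36 genes were tested.

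The study has 8 RNA sequencing libraries from C57BL/6 bone marrow, 4 labelled ex vivo CLP and 4 labelled cCLP. The ex vivo CLP were freshly isolated. The cCLP had been kept in culture for 2 months on OP9 cells, a mouse stromal line, in a medium named KIDMEM to which Flt3L and a small amount of IL-7 were added. Both kinds were sorted by the same surface phenotype: negative for lineage markers and Ly6d, positive for IL7R, Flk2 (the product of Flt3) and CD27. The labels give no age of the mice, and do not say whether libraries came from separate animals or cultures or how many animals started the cultures, so the p-values measure only the spread between these libraries.

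Serine made by Phgdh, Psat1 and Psph, or taken up, gives its side-chain carbon to tetrahydrofolate through the serine hydroxymethyltransferases. The folate-bound carbon is used in purine rings, in thymidylate and in methionine. Purines are assembled stepwise on phosphoribosyl pyrophosphate (PRPP) as far as inosine monophosphate (IMP), which is then turned into AMP or GMP, whereas the pyrimidine ring is closed first and joined to PRPP afterwards. Lymphoid cells that divide depend on both new synthesis and salvage, and inherited loss of adenosine deaminase or of purine nucleoside phosphorylase causes immunodeficiency. MYC and ATF4 are known activators of genes along this route.

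The files hold whole numbers per gene that vary less between libraries than read counts can, so they were treated as values of unknown scaling. Each library was divided by a factor, and these scaled values are comparable between libraries for 1 gene but not between genes. A sum or share over several genes weights each gene by its unknown scale and is led by the highest values. Such sums are therefore read only between libraries. The summed values ran from 378594 to 704305 per library, with 11371 to 12779 genes above 0. The members took 0.437% to 0.529% of the sum in each library.

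The profile of 1 library in each group went against its label. The library labelled ex vivo CLP 2 had rank correlations across genes of 0.973 to 0.979 with cCLP 2, 3 and 4 and of 0.913 to 0.927 with ex vivo CLP 1, 3 and 4. For the library labelled cCLP 1 they were 0.970 to 0.974 with ex vivo CLP 1, 3 and 4 and 0.924 to 0.925 with cCLP 2, 3 and 4. No library was moved to the other group. Member calls, called members and pair ratios are given over the 8 libraries as labelled and over the 6 without these libraries. For members not called and for genes of other lists, fold changes are given over the 6 only. The 6 are ex vivo CLP 1, 3 and 4 against cCLP 2, 3 and 4. These are called the retained ex vivo and the retained cultured libraries, and their values are listed in that order. The 6 were chosen from where their profiles lie, so p-values over them hold only given that choice.

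The RNA of the sorting markers was checked against the labels. Flt3 lay between 206.7 and 279 in the 8 libraries, and Cd27 between 62.8 and 103. Il7r was detected in every library but ranged from 17.2 to 226, with 195 to 226 in the retained cultured libraries and 17.2 to 73.7 in the retained ex vivo ones. Ly6d, whose protein the sort selected against, lay at 29.4 to 35.6 in the retained ex vivo libraries and at 20.9 in the library labelled cCLP 1, against 0.838 to 1.06 in the retained cultured ones. Kit and Ly6a, CLP markers not named in that sort, were also read. Kit had 30.2, 24.1 and 33.7 in the retained ex vivo libraries and 10.6, 10.5 and 9.22 in the retained cultured ones. Ly6a had 31.4, 31.75 and 25.8, and 0.0, 0.956 and 0.0, in the same order.

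Over the 8 libraries as labelled, none of the 36 members passed an adjusted p of 0.05 in limma's moderated test. The background was the same, with 0.0% of 6580 genes called and a smallest adjusted p of 0.482. At an unadjusted p under 0.05 there was 1 member of 36 (2.78%), against 510 genes in all (7.75%). The members' log2 differences, cCLP minus ex vivo CLP, ran from -0.49 to 0.86 with a median of -0.02, beside a median of -0.01 over all genes tested. The range of the 4 ex vivo CLP libraries overlapped that of the 4 cCLP libraries for every one of the 36 members, while 3.45% of all genes had groups that did not overlap. For 32 of the 36 (88.9%) the fold change had a 95% interval inside 2-fold in either direction, against 81.3% of all genes.

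The smallest unadjusted p-values among the members over the 8 libraries belonged to Ada, Cmpk1 and Adss. Ada, which deaminates adenosine and deoxyadenosine, had a scaled value of 23.2 ± 4.24 (SD, n = 4) in ex vivo CLP and 17.0 ± 4.13 (n = 4) in cCLP. Its unadjusted p in limma was 0.047. Cmpk1, the cytosolic UMP and CMP kinase, had 56.3 ± 11.7 and 42.5 ± 7.90 (SD, n = 4 each). Adss, which commits IMP to AMP, had 43.7 ± 5.76 and 35.2 ± 6.03 (SD, n = 4 each). The unadjusted limma p was 0.0559 for Cmpk1 and 0.062 for Adss, and after adjustment Ada, Cmpk1 and Adss shared 0.482.

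Over the 6 libraries, 4 of the 36 members rose in cCLP (11.1%, against 20.7% of 6622 genes) and 9 fell (25.0%, against 22.4%). Mat2a, Atic, Impdh1 and Umps were higher. Mthfd2, Prps1, Adss, Impdh2, Hprt, Ada, Ctps, Uck2 and Cmpk1 were lower. Together 36.1% of the members were called against 43.1% of all genes, and at an unadjusted p under 0.05 there were 16 members (44.4%, against 50.7%), so the number of calls is not a result about this route. The differences ran from -1.14 to 1.67 on the log2 scale, with a median of -0.09 beside -0.001 over all genes. The median size of the difference was 0.27 in the members and 0.31 over all genes.

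Most differences were small. The groups of 3 did not overlap for 22 of the 36 (61.1%, against 55.9% of all genes). The fold change had a 95% interval inside 2-fold for 31 members (86.1%, against 77.7% of all genes). A called change of at least 2-fold was found for Impdh1, Prps1 and Mat2a alone among the 36 (8.33%, against 12.2%). In bulk samples, fewer cells of a type and less RNA per cell cannot be told apart, which holds for every lower value given here.

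**Figure D1:**
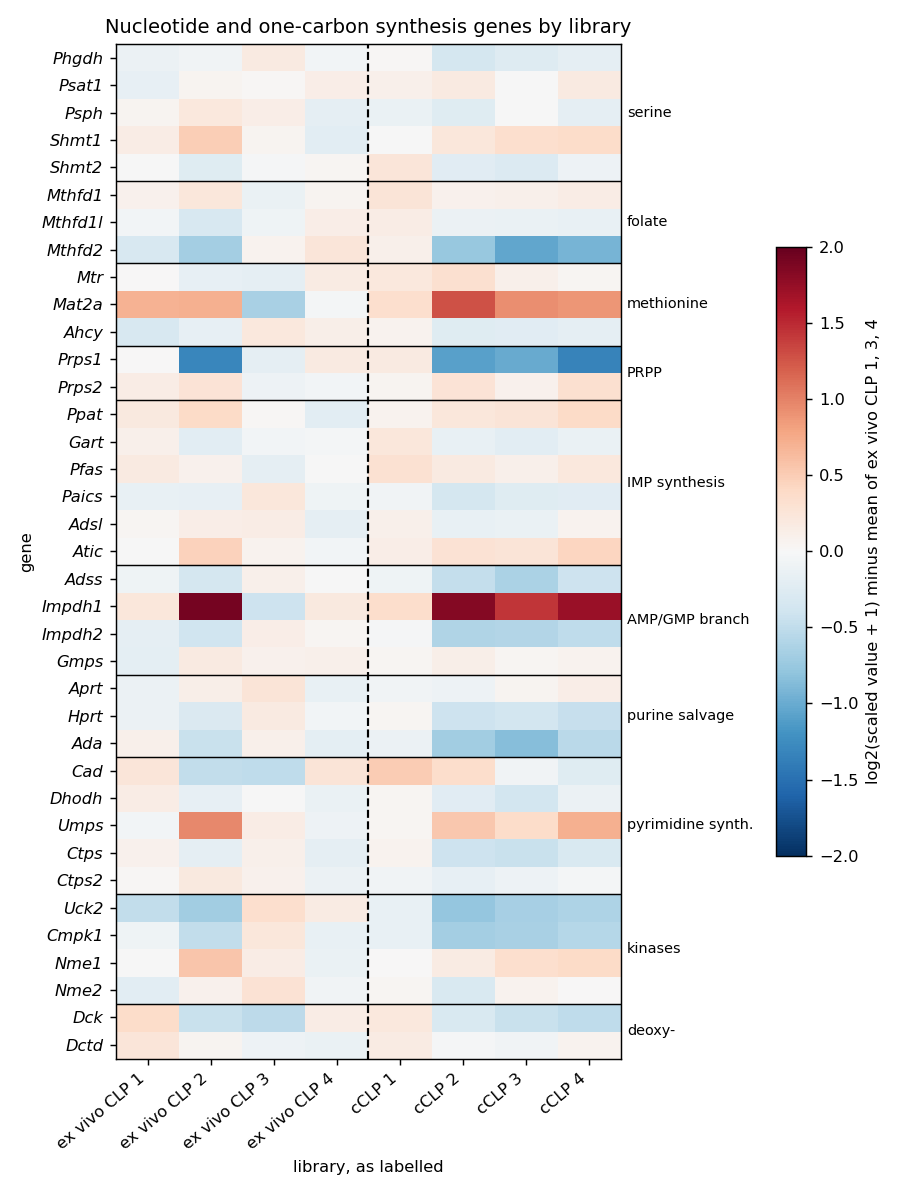
Each row is 1 of the 37 genes with a row in the files and each column 1 library as labelled, with a dashed line between ex vivo CLP and cCLP; colour is log2(scaled value + 1) minus the mean of ex vivo CLP 1, 3 and 4, from blue (lower) to red (higher), and solid lines separate the steps of the route. Impdh1 is red and Prps1 blue in cCLP 2, 3 and 4 and in the library labelled ex vivo CLP 2, while the library labelled cCLP 1 is pale for both.

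For the 13 called members, the place of the set-aside libraries was counted. The one labelled ex vivo CLP 2 lay nearer to the mean of cCLP 2, 3 and 4 for 12 of the 13, with Ctps the exception. The library labelled cCLP 1 lay nearer to ex vivo CLP 1, 3 and 4 for 13 of 13. Over all 2851 genes called, the counts were 2603 (91.3%) and 2676, so the members went the way of the whole profile.

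**Figure D2:**
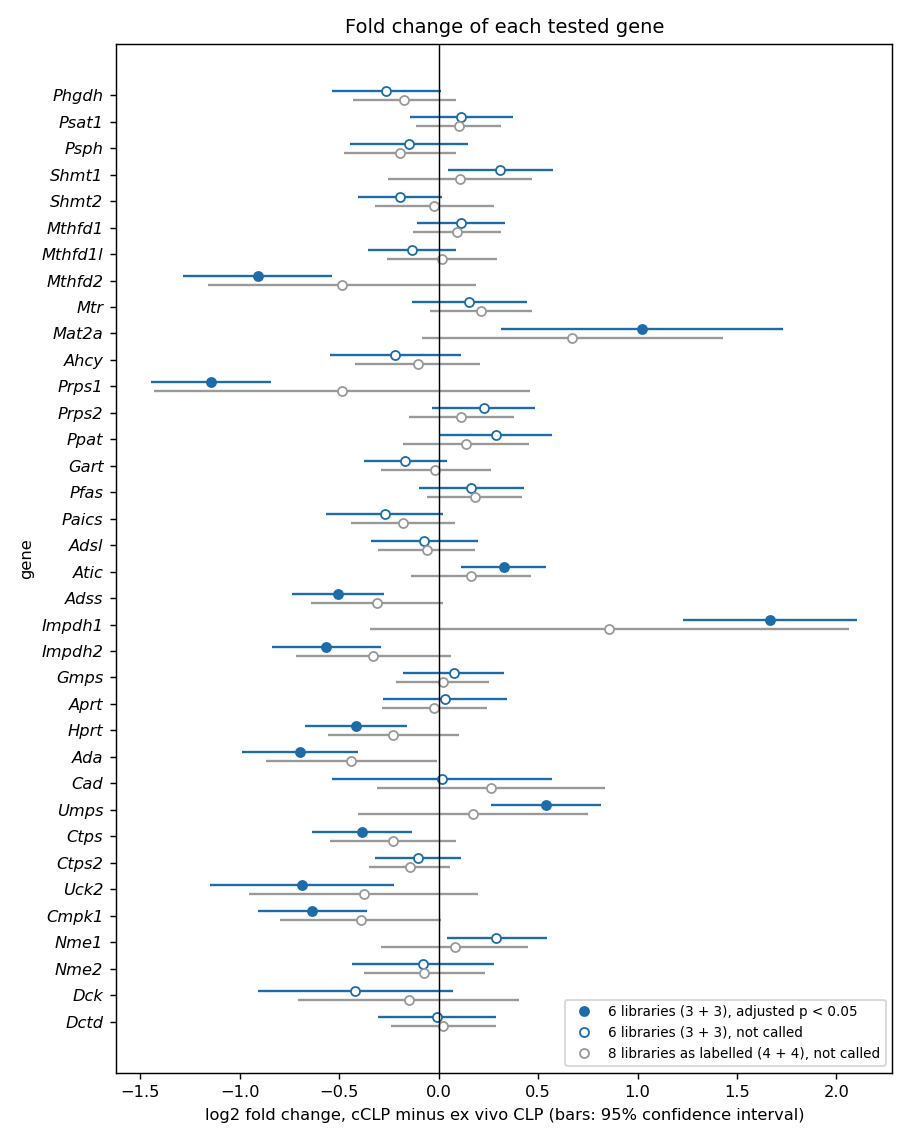
The log2 difference of each of the 36 tested genes (cCLP minus ex vivo CLP) is a point with its 95% confidence interval, in blue over 6 libraries and in grey over the 8 as labelled; filled points have an adjusted p under 0.05. Filled points occur only over the 6 libraries, 4 to the right of 0 and 9 to the left.

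Of the 5 serine genes, none was called over the 6 libraries. The 3 steps from a glycolytic intermediate to serine were Phgdh, the first enzyme, at -0.26 ± 0.12 (log2 difference ± SE; adjusted p = 0.109), Psat1 at 0.11 ± 0.11 (adjusted p = 0.444) and Psph at -0.15 ± 0.13 (adjusted p = 0.389). Phgdh had scaled values of 201, 248 and 211 in the retained ex vivo libraries and of 171, 183 and 194 in the retained cultured ones. These groups did not overlap, but the library labelled ex vivo CLP 2 had 209 and the library labelled cCLP 1 had 223, so for Phgdh the former lay with its own label.

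The cytosolic hydroxymethyltransferase Shmt1 and the mitochondrial Shmt2 differed in opposite directions, and neither was called. Shmt1 was at 35.1, 33.0 and 27.3 in the retained ex vivo libraries and at 37.2, 40.1 and 41.1 in the retained cultured ones (0.31 ± 0.12, adjusted p = 0.0599). Shmt2 was at 93.1, 91.4 and 95.4 and at 79.7, 77.4 and 87.2 in the same libraries (-0.20 ± 0.09, adjusted p = 0.121). The groups of 3 did not overlap for either gene. The library labelled ex vivo CLP 2 had 44.9 for Shmt1 and 78.5 for Shmt2, and the library labelled cCLP 1 had 31.4 and 111. Without ex vivo CLP 1, Shmt1 was called (adjusted p = 0.0201).

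Among the folate enzymes, Mthfd2 fell and Mthfd1 and Mthfd1l were not called. Mthfd2 (chr6:83305691-83325908, minus strand, GRCm38) is the mitochondrial methylenetetrahydrofolate dehydrogenase and cyclohydrolase, known for its high level in dividing cells. Its scaled values were 13.3, 17.8 and 20.1 in the retained ex vivo libraries and 9.57, 7.65 and 8.38 in the retained cultured ones. In the library labelled ex vivo CLP 2 it was at 10.1, and in the one labelled cCLP 1 at 18.1. All 3 ex vivo values were above all 3 cCLP values. Mthfd2 fell by 0.91 ± 0.16 on the log2 scale over the 6 libraries (adjusted p = 0.003), against -0.49 ± 0.29 (adjusted p = 0.482) over the 8. Because it lay under the filter's minimum of 10 in the retained cultured libraries, it was tested only through the ex vivo libraries, which fixed its direction.

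The cytosolic trifunctional enzyme Mthfd1 had 52.0, 44.5 and 51.0 in the retained ex vivo libraries and 52.1, 52.6 and 54.5 in the retained cultured ones (0.11 ± 0.10, adjusted p = 0.381). It read 57.2 in the library labelled ex vivo CLP 2 and 58.9 in that labelled cCLP 1, the highest of the 8. Mthfd1l, which makes formate in the mitochondrion, differed by -0.13 ± 0.10 (adjusted p = 0.303).

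In the methionine cycle, Mat2a rose, whereas the methionine synthase Mtr (0.16 ± 0.12, adjusted p = 0.352) and the S-adenosylhomocysteine hydrolase Ahcy (-0.22 ± 0.14, adjusted p = 0.256) were not called. Mat2a (chr6:72432799-72439558, minus strand) makes S-adenosylmethionine, the methyl donor of most methylation reactions. It had 95.5, 36.8 and 56.7 in the retained ex vivo libraries, and 142, 112 and 108 in the retained cultured ones. Of the libraries set aside, the one labelled ex vivo CLP 2 gave 96.5 and the one labelled cCLP 1 gave 74.1. Ex vivo CLP 1 lay close below the cCLP values and far above the other ex vivo libraries, and the groups of 3 did not overlap. The difference over the 6 libraries was 1.02 ± 0.31 (adjusted p = 0.0287), or 2.03-fold, against 0.67 ± 0.33 (adjusted p = 0.482) over the 8. Leaving out any 1 of ex vivo CLP 3, ex vivo CLP 4, cCLP 2, cCLP 3 or cCLP 4 ended the call (adjusted p from 0.0549 to 0.116), as did scaling by the total (0.0516). Ahcy was called without ex vivo CLP 1 (-0.36, adjusted p = 0.0127).

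PRPP, the activated ribose that both purine and pyrimidine synthesis use, is made by the closely related synthetases Prps1 and Prps2, both on the X chromosome. Prps1 fell and Prps2 was not called. The 250 bases before each RefSeq start are shown because 1 of the pair was called and the other was not; the difference itself is given as a ratio further on. They were searched on both strands for CACGTG, the E-box that MYC and its relatives bind, and for TGATGNAA, a form of the element that ATF4 binds. Capitals mark a match. Both are written 5′ to 3′ on the gene's strand, from RefSeq on GRCm38.p6, at chrX:140456353-140456602 (plus strand) for Prps1 and chrX:167382750-167382999 (minus strand) for Prps2.
Prps1: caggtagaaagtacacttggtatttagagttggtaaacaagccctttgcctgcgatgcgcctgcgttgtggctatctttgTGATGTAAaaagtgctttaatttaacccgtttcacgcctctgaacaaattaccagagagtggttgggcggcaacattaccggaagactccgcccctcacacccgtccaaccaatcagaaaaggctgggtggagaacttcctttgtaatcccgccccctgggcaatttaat
Prps2: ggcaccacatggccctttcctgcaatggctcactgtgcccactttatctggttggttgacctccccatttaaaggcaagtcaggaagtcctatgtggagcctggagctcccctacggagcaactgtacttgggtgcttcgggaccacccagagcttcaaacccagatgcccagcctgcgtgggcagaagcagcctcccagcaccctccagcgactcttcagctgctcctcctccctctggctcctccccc

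The Prps1 window holds TGATGTAA with its first base 170 bases before the start, and the Prps2 window holds neither motif. A gene can have several RefSeq starts, of which the one farthest upstream is shown, and a match in any of its windows was counted. TGATGNAA was found for 1056 of 27025 genes (3.91%) and for 1 of the 36 members with an entry (2.78%). CACGTG was found for 1854 genes (6.86%) and for 4 members (11.1%), Atic, Impdh2, Nme1 and Paics. No member window held both. A match here is a description of the letters only.

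Prps1 (chrX:140456613-140476140, plus strand) had scaled values of 37.5, 33.0 and 42.3 in the retained ex vivo libraries and of 17.0, 18.2 and 14.3 in the retained cultured ones. Outside the 6, ex vivo CLP 2 as labelled read 14.6 and cCLP 1 as labelled read 42.8. The lowest ex vivo value of the 3 was well above the highest of the retained cultured ones. The difference was -1.14 ± 0.13 over the 6 libraries (2.21-fold lower, adjusted p = 0.000291) and -0.49 ± 0.41 over the 8 (adjusted p = 0.533).

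Prps2 had 77.3, 64.8 and 66.7 in the retained ex vivo libraries and 84.0, 73.6 and 87.2 in the retained cultured ones, with 84.2 in the library labelled ex vivo CLP 2 and 72.2 in the library labelled cCLP 1. The groups of 3 overlapped, and the difference was 0.23 ± 0.11 (adjusted p = 0.141). It was called without ex vivo CLP 1 (adjusted p = 0.0476).

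Of the 6 genes that build IMP on PRPP, 1 was called. Ppat, the amidotransferase that commits PRPP to purines, differed by 0.29 ± 0.12 (adjusted p = 0.0917) and was called only when ex vivo CLP 1 was left out (adjusted p = 0.0178). Gart, a trifunctional enzyme that uses formyl folate, differed by -0.17 ± 0.09 (adjusted p = 0.173). Pfas, the amidotransferase of the fourth step, had 0.16 ± 0.11 (adjusted p = 0.287). Paics, which adds carbon dioxide and aspartate, had -0.27 ± 0.13 (adjusted p = 0.125), and Adsl, the adenylosuccinate lyase, -0.07 ± 0.12 (adjusted p = 0.651). Ppat and Paics lie head to head and overlap at their starts in the annotation, and whether reads were counted by strand is not given in the sources used here.

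Atic (chr1:71557150-71579631, plus strand), which carries out the last formylation and closes the ring, rose. It was at 51.0 ± 2.28 (SD, n = 3) in the retained ex vivo libraries and at 64.2 ± 4.01 (n = 3) in the retained cultured ones, with 70.7 in the library labelled ex vivo CLP 2 and 56.0 in the library labelled cCLP 1. The difference was 0.33 ± 0.09 (adjusted p = 0.0227), against 0.16 ± 0.13 (adjusted p = 0.522) over the 8. The call was lost without ex vivo CLP 4 (adjusted p = 0.0587), cCLP 3 (0.0527) or cCLP 4 (0.0805).

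At the branch from IMP the genes moved in opposite directions. Impdh1 and Impdh2 encode the IMP dehydrogenases, which set the rate of GMP synthesis. Impdh1 rose and Impdh2 fell. The window before the start of Impdh1 (chr6:29216365-29216614, minus strand) and that before Atic (chr1:71556906-71557155, plus strand) are shown with the 26 bases around the single motif before Impdh2 (chr9:108560316-108560341, plus strand), because these genes changed and differ in the motif. Capitals mark CACGTG.
Impdh1: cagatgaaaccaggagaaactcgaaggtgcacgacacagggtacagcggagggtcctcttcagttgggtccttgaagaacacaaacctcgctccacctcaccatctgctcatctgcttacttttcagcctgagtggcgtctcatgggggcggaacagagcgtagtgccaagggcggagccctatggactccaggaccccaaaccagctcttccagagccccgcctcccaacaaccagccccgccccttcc
Atic: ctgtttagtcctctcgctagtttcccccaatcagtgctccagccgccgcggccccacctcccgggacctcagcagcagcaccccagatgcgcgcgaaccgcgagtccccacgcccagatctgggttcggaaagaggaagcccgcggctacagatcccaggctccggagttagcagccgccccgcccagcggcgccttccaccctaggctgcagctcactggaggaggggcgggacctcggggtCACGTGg
Impdh2: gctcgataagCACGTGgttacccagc

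The first base of CACGTG lies 7 bases before the RefSeq start of Atic and 110 bases before that of Impdh2, and the Impdh1 window holds neither motif. The gene positions given here are those of GENCODE, which starts Impdh2 upstream of the RefSeq start, so the Impdh2 stretch lies inside the GENCODE gene, as do the last bases of the Atic window. Any link between motif and direction was not tested. Of the members with CACGTG, Atic rose and Impdh2 fell. Of the others with it, Nme1 (0.29 ± 0.11, adjusted p = 0.0627) and Paics were not called.

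Impdh1 (chr6:29200434-29216364, minus strand) had scaled values of 24.2, 15.2 and 23.7 in the retained ex vivo libraries and of 76.5, 57.3 and 70.4 in the retained cultured ones. The library labelled ex vivo CLP 2 had 80.8, the highest of the 8, and the library labelled cCLP 1 had 26.6. The highest ex vivo value of the 3 was far below the lowest of the retained cultured ones. Impdh1 rose by 1.67 ± 0.19 (3.18-fold, adjusted p = 0.000289), the largest rise among the 36 over the 6 libraries. Over the 8 it differed by 0.86 ± 0.52 (adjusted p = 0.482).

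Impdh2 (chr9:108560286-108565584, plus strand) had 305, 379.7 and 353 in the retained ex vivo libraries and 226, 230.3 and 242 in the retained cultured ones. In the library labelled ex vivo CLP 2 it was at 261, and in the one labelled cCLP 1 at 340.1. Again the groups of 3 did not overlap, with every ex vivo value above every cCLP value. The difference was -0.56 ± 0.12 (adjusted p = 0.00654) over the 6 and -0.33 ± 0.17 (adjusted p = 0.482) over the 8.

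Adss (chr1:177762962-177796511, minus strand), the adenylosuccinate synthase of the AMP branch, had 43.5, 49.5 and 45.9 in the retained ex vivo libraries and 33.0, 29.6 and 34.4 in the retained cultured ones. It read 35.9 in the library labelled ex vivo CLP 2 and 43.7 in that labelled cCLP 1. The groups of 3 lay apart, and the difference was -0.51 ± 0.10 (adjusted p = 0.00468), against -0.31 ± 0.14 (adjusted p = 0.482) over the 8. Gmps, which aminates XMP to GMP, differed by 0.08 ± 0.11 (adjusted p = 0.605).

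Of the 3 purine salvage genes matched in the files, Hprt and Ada fell and Aprt was not called. Hprt (chrX:52988137-53021659, plus strand) returns hypoxanthine and guanine to nucleotides. It was at 191.9 ± 21.3 (SD, n = 3) in the retained ex vivo libraries and at 143 ± 4.01 (n = 3) in the retained cultured ones. Of the libraries set aside, the one labelled ex vivo CLP 2 gave 156.0 and the one labelled cCLP 1 gave 196. The difference was -0.41 ± 0.11 (adjusted p = 0.0185), against -0.23 ± 0.14 (adjusted p = 0.482) over the 8. Leaving out cCLP 3 (adjusted p = 0.0556) or cCLP 4 (0.061) ended the call. Aprt, which salvages adenine, differed by 0.03 ± 0.13 (adjusted p = 0.87).

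Ada (chr2:163726584-163750239, minus strand) had 26.6, 26.7 and 21.5 in the retained ex vivo libraries and 14.9, 13.4 and 16.8 in the retained cultured ones. Outside the 6, ex vivo CLP 2 as labelled read 17.9 and cCLP 1 as labelled read 22.8. Every ex vivo value of the 3 lay above every cCLP value. Ada fell by 0.69 ± 0.13 (1.62-fold lower, adjusted p = 0.00322), against -0.44 ± 0.19 (adjusted p = 0.482) over the 8.

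**Figure D3:**
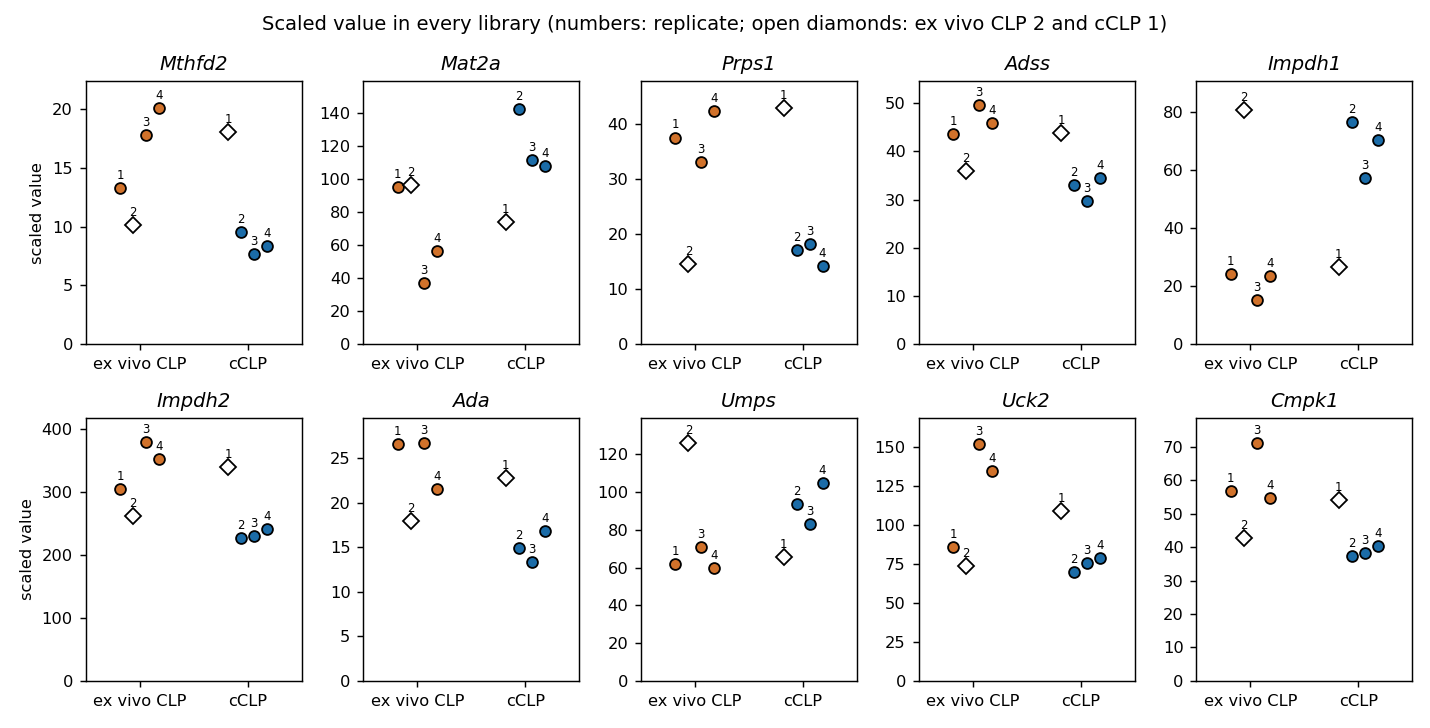
Scaled value (linear axes from 0) of the 10 members called over 6 libraries with a log2 difference of at least 0.5 in size, with 1 point for each library, its replicate number above it, and open diamonds for the library labelled ex vivo CLP 2 and for that labelled cCLP 1. Filled points of the groups do not overlap in any panel; for Impdh1 the diamond of ex vivo CLP 2 is at 80.8 and that of cCLP 1 at 26.6.

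Pyrimidine synthesis gave 1 rise and 1 fall among 4 tested genes. Cad, whose protein carries the first 3 activities of the pathway and is its regulated entry, differed by 0.02 ± 0.24 (adjusted p = 0.959). Its values were low and scattered, from 8.89 to 15.8 in the retained ex vivo libraries and from 10.9 to 17.0 in the retained cultured ones. The 95% interval of the log2 difference, -0.53 to 0.57, spans both directions.

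Umps (chr16:33954782-33967038, minus strand), which joins orotate to PRPP and makes UMP, rose. It had 61.6, 71.1 and 59.6 in the retained ex vivo libraries and 93.6, 83.2 and 105 in the retained cultured ones. The library labelled ex vivo CLP 2 was at 126, above all others, and the library labelled cCLP 1 at 65.6. The groups of 3 did not overlap, with a difference of 0.54 ± 0.12 (adjusted p = 0.00841), against 0.17 ± 0.25 (adjusted p = 0.701) over the 8. An antisense gene, Gm15829, overlaps Umps, and with the strand setting not given their reads cannot be told apart. Annotated genes also overlap Mat2a (Particl), Mthfd2 (Gm43890), Adss (Gm16585), Uck2 (Gm37982 and Gm2453) and Impdh2 (Ndufaf3).

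The CTP synthases aminate UTP to CTP. Ctps had 36.3, 36.8 and 30.1 in the retained ex vivo libraries and 25.5, 24.9 and 27.7 in the retained cultured ones, with 30.3 in the library labelled ex vivo CLP 2 and 36.1 in the library labelled cCLP 1. It fell by 0.39 ± 0.11 (adjusted p = 0.0221), against -0.23 ± 0.14 (adjusted p = 0.482) over the 8. The groups of 3 did not overlap, but the call was lost without ex vivo CLP 3 (adjusted p = 0.0537), cCLP 2 (0.0736) or cCLP 3 (0.0844) and with scaling by the total (0.0661). Ctps2 had 38.7, 40.6 and 35.2 in the retained ex vivo libraries and 34.0, 35.4 and 36.9 in the retained cultured ones, with 43.8 in the library labelled ex vivo CLP 2 and 36.1 in that labelled cCLP 1. Those groups overlapped (-0.10 ± 0.09, adjusted p = 0.414).

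The kinases that carry pyrimidine nucleosides towards triphosphates included the falls of Uck2 and Cmpk1. Uck2 (chr1:167222883-167285320, minus strand), which phosphorylates uridine and cytidine, had 85.8, 152 and 135 in the retained ex vivo libraries and 70.2, 75.5 and 78.8 in the retained cultured ones. In the library labelled ex vivo CLP 2 it was at 74.1, and in the one labelled cCLP 1 at 109. Ex vivo CLP 1 lay close above the cCLP values, and the groups of 3 did not overlap. Uck2 fell by 0.69 ± 0.20 (adjusted p = 0.0252), against -0.38 ± 0.25 (adjusted p = 0.484) over the 8. The call was lost when any 1 of ex vivo CLP 3, ex vivo CLP 4, cCLP 2, cCLP 3 or cCLP 4 was left out (adjusted p from 0.0575 to 0.0819).

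Cmpk1 (chr4:114959336-114987241, minus strand) had 56.8, 71.1 and 54.5 in the retained ex vivo libraries and 37.2, 38.2 and 40.2 in the retained cultured ones. It read 42.6 in the library labelled ex vivo CLP 2 and 54.2 in that labelled cCLP 1. The 3 cCLP values were close together and below all 3 ex vivo values. Cmpk1 fell by 0.64 ± 0.12 (1.55-fold lower, adjusted p = 0.00365), against -0.39 ± 0.18 (adjusted p = 0.482) over the 8.

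Nme1 and Nme2 encode neighbouring nucleoside diphosphate kinases. Nme1 had 37.5, 41.9 and 34.4 in the retained ex vivo libraries and 42.5, 47.8 and 49.5 in the retained cultured ones, with 56.1 in the library labelled ex vivo CLP 2 and 38.0 in that labelled cCLP 1. Those groups of 3 did not overlap. Nme2 had 52.0, 73.7 and 57.4, and 48.9, 63.1 and 60.4, with 64.0 and 61.7 in the same order, and the groups overlapped (-0.08 ± 0.15, adjusted p = 0.708). The pair is near identical in sequence and is spanned by an annotated readthrough gene, so its reads can be split between them and each value is uncertain. Nme1 was called without ex vivo CLP 3 (adjusted p = 0.0314) or cCLP 2 (0.0488) and with scaling by the total (0.0331).

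The deoxynucleotide genes Dck, which phosphorylates deoxycytidine and other deoxynucleosides, and Dctd, the dCMP deaminase, were not called. Dck was at 36.3, 19.0 and 30.9 in the retained ex vivo libraries and at 22.3, 20.1 and 19.3 in the retained cultured ones (-0.42 ± 0.21, adjusted p = 0.151). Ex vivo CLP 3 lay below the cCLP libraries and the other ex vivo libraries above them. Without ex vivo CLP 3, Dck was called at -0.68 (adjusted p = 0.00407). Dctd differed by -0.01 ± 0.13 (adjusted p = 0.967).

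For 6 pairs of members that catalyse the same or the matching step, the log2 ratio of the pair was taken within each library, which does not depend on the scaling between libraries. The ratio depends on the unknown scale of each gene, so a ratio is read only for its difference between libraries and says nothing of which gene of a pair is more abundant. Impdh1 over Impdh2 was -3.59, -4.53 and -3.86 in the retained ex vivo libraries and -1.55, -1.99 and -1.77 in the retained cultured ones. The library labelled ex vivo CLP 2 had -1.68 and the library labelled cCLP 1 had -3.63. The ratio was 2.22 higher in cCLP over the 6 libraries and 1.18 higher over the 8 (exact two-sided permutation p = 0.229, adjusted p = 0.6 over the 6 ratios).

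Prps1 over Prps2 was -1.02, -0.95 and -0.65 in the retained ex vivo libraries and -2.23, -1.96 and -2.54 in the retained cultured ones. The library labelled ex vivo CLP 2 had -2.44 and the library labelled cCLP 1 had -0.74. The difference was -1.38 over the 6 libraries and -0.61 over the 8 (exact two-sided permutation p = 0.4). Mthfd2 over Mthfd1 differed by -1.03 over the 6 and -0.59 over the 8 (exact permutation p = 0.171).

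For the remaining ratios the difference was smaller. Shmt2 over Shmt1 differed by -0.50 over the 6 libraries and -0.13 over the 8 (exact permutation p = 0.629). Nme1 over Nme2 differed by 0.37 and 0.15 (exact permutation p = 0.371), and Ctps over Ctps2 by -0.28 and -0.09 (exact permutation p = 0.543). In all 6 pairs the groups of 3 did not overlap, where 55.9% of all single genes did not overlap over the same libraries. Ratios of other gene pairs were not examined, so this count is not a result about these pairs. The exact two-sided permutation p over the 6 libraries was 0.1 for each pair, the smallest that 3 against 3 allows. Over the 8 libraries, where 0.0286 is the smallest possible, no ratio passed 0.05.

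**Figure D4:**
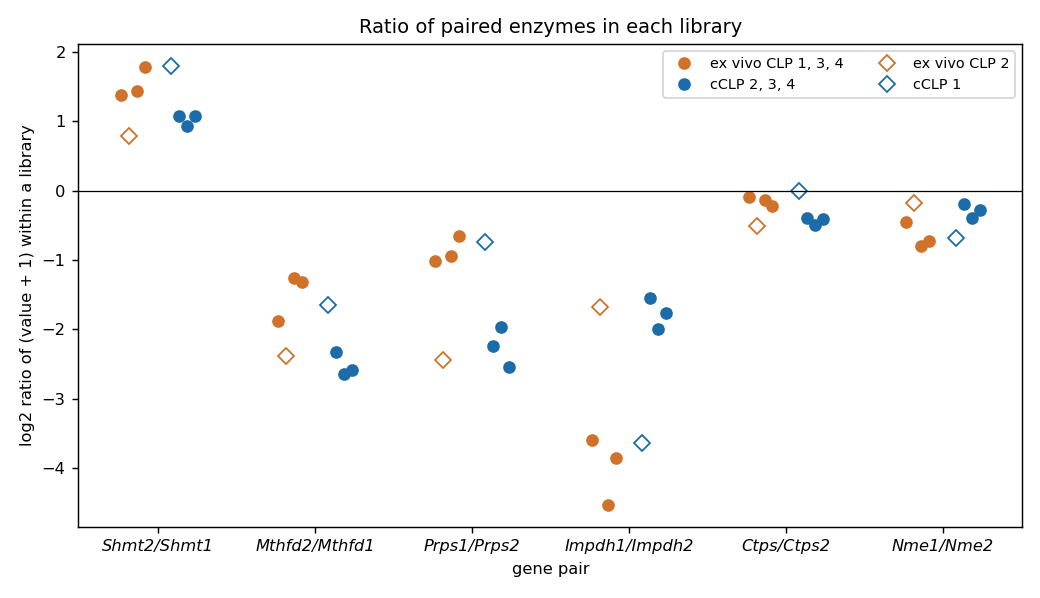
Log2 ratio of (value + 1) of the 6 gene pairs within each library, with 1 point per library; orange is ex vivo CLP, blue is cCLP, and open diamonds are the library labelled ex vivo CLP 2 and that labelled cCLP 1. For Impdh1/Impdh2 the filled cCLP points lie from -1.99 to -1.55 and the filled ex vivo points from -4.53 to -3.59, with each diamond beside the filled points of the other label.

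Other genes of the same pathways were taken from 9 lists of 114 genes in all, of which 70 were tested. Over the 6 libraries 9 were higher and 24 lower, with a median of -0.16, where 20.7% of all genes were higher and 22.4% lower. Over the 8 none was called. The counts of each list that follow are a description and were not compared with these shares. Among the folate cofactor genes, 6 of 17 were tested. The thymidylate synthase Tyms fell by 0.89 ± 0.18 (adjusted p = 0.00606). Mtrr, which reactivates methionine synthase, and Gcsh, of the glycine cleavage system, rose by 0.48 ± 0.15 and 0.31 ± 0.10 (adjusted p = 0.0363 and 0.0429).

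Of the methionine and polyamine genes, 10 of 16 were tested, 2 rose and 1 fell. These were Amd1 (0.37 ± 0.12, adjusted p = 0.0361) and Sms (0.34 ± 0.10, adjusted p = 0.0324) of polyamine synthesis, and Mtap, which recycles its by-product (-0.28 ± 0.09, adjusted p = 0.0415). Of the amino acid supply genes, 8 of 14 were tested, 1 rose and 3 fell. Glutamine synthetase, Glul, fell by 1.68 ± 0.14 (adjusted p = 5.33e-05), with scaled values of 59.2, 80.0 and 76.8 in the retained ex vivo libraries and 23.4, 19.1 and 22.6 in the retained cultured ones. Slc3a2, the heavy chain of large amino acid transporters, fell by 0.90 ± 0.21 (adjusted p = 0.0102), and the glutamine carrier Slc38a1 rose by 0.40 ± 0.13 (adjusted p = 0.0449).

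In the pentose phosphate pathway, which supplies ribose, 9 of 9 genes were tested, 1 rose and 2 fell. Rpia, the ribose phosphate isomerase, fell by 1.05 ± 0.10 (adjusted p = 0.000125), Taldo1 fell by 0.71 ± 0.14 (adjusted p = 0.00491), and Pgd rose by 0.60 ± 0.19 (adjusted p = 0.0338). Of 13 purine interconversion genes tested out of 22, 1 rose and 3 fell. Pnp2 had 1.21, 1.27 and 0.0 in the retained ex vivo libraries and 41.5, 17.2 and 58.7 in the retained cultured ones, with 34.8 in the library labelled ex vivo CLP 2 and 0.95 in the library labelled cCLP 1. Pnp2 overlaps the near-identical Pnp in the annotation, so its value is uncertain. Adssl1 fell by 1.10 ± 0.32 (adjusted p = 0.0249), and Dguok, the deoxyguanosine kinase, fell by 0.51 ± 0.11 (adjusted p = 0.009).

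Among pyrimidine interconversion genes, 12 of 19 were tested, 2 rose and 7 fell. Thymidine kinase Tk1 fell by 1.05 ± 0.13 (adjusted p = 0.000405) and Cmpk2, a mitochondrial UMP and CMP kinase, by 2.24 ± 0.19 (adjusted p = 6.31e-05). Nme7 (0.52 ± 0.14, adjusted p = 0.0198) and Nt5c3b (0.38 ± 0.11, adjusted p = 0.0251) rose. Of the deoxynucleotide supply genes, 5 of 6 were tested and 4 fell, with Dctpp1, the dCTP pyrophosphatase, at -0.66 ± 0.13 (adjusted p = 0.0055) and the dUTPase Dut at -0.50 ± 0.11 (adjusted p = 0.00956).

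The nucleoside carrier Slc28a2 fell by 1.68 ± 0.17 (adjusted p = 0.000155), 1 of 2 tested of 4 transporters. Of the regulators, 5 of 7 were tested and 1 fell. Atf4 had 242, 466 and 373 in the retained ex vivo libraries and 194, 190.2 and 209 in the retained cultured ones (-0.81 ± 0.22, adjusted p = 0.0196). Myc was not called (0.16 ± 0.26, adjusted p = 0.644). Mtrr, Rpia, Pnp2, Cmpk2 and Slc28a2 passed the filter through 1 group only, which fixed their direction. The same held for Nt5c3 and Nt5m among the lower pyrimidine genes and for Samhd1 among the lower deoxynucleotide supply genes. Mtrr, Gcsh, Amd1, Sms, Mtap, Slc38a1, Pgd, Adssl1, Nme7, Nt5c3b and Atf4 each lost their call when some 1 library was left out (adjusted p up to 0.16), and each of the 6 libraries ended at least 1 of these calls.

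Genes of the cell cycle also differed over the 6 libraries. Of 16 S phase genes tested, 11 fell and none rose, with a median of -0.56, where 22.4% of all genes fell. Their summed scaled value was 1932 to 2107 in the retained ex vivo libraries, 1354 to 1408 in the retained cultured ones, 1398 in the library labelled ex vivo CLP 2 and 1928 in the library labelled cCLP 1. Of 17 tested of 18 genes of G2 and mitosis, 12 fell and none rose, with a median of -0.45 and sums of 1078 to 1311 in the retained ex vivo libraries and 689.9 to 871.1 in the retained cultured ones. A sum of 931, between the groups, was found in the library labelled ex vivo CLP 2 and one of 1109 in that labelled cCLP 1. The part of these genes' change in the values of the members was not tested.

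Markers of other blood cells also differed. The summed value of 12 myeloid markers was 1314 to 3172 in the retained ex vivo libraries and 350.8 to 389.9 in the retained cultured ones, with 252 in the library labelled ex vivo CLP 2 and 1693 in that labelled cCLP 1. Of the 11 tested, 10 were lower and 1 higher, where 22.4% of all genes were lower and 20.7% higher. Of the lower ones, 9 passed the filter only through the ex vivo libraries, which fixed their direction. The higher one was Fcgr3, at 1.21, 20.3 and 14.35 in the retained ex vivo libraries and 81.85, 90.8 and 95.6 in the retained cultured ones. Mpo and Fcgr3 made up most of the retained cultured sums. For 8 dendritic cell markers the sums were 441 to 569.8 and 63.7 to 81.2. Of the 8, 7 were lower, against 22.4% of all genes. For 6 of these the direction was fixed, since they passed the filter only through the ex vivo libraries. The 9 B cell markers summed to 45.9 to 66.5 and 18.1 to 28.5, with 55.0 in the library labelled ex vivo CLP 2 and 47.5 in that labelled cCLP 1. Within that sum Cd79b and Blnk were lower in the retained cultured libraries, again tested only through the ex vivo ones. Cd79a was at 0.718 to 1.27 in the retained ex vivo libraries and at 6.69 to 13.4 in the retained cultured ones, and Ebf1 at 0.0 to 1.21 and 5.73 to 7.55, both too low to test. The sums of the 11 T and natural killer markers were 50.8 to 66.0 and 4.19 to 12.4, with Cd3e, Cd8a, Bcl11b and Ncr1 at 0 in all 8 libraries. Most of each sum was Nkg7, the only 1 of the 11 tested. It had 43.5, 49.5 and 61.0 in the retained ex vivo libraries and 4.25, 11.5 and 4.19 in the retained cultured ones. The sums therefore describe little beyond that 1 gene. The 8 erythroid and megakaryocyte markers summed to 9.67 to 34.3 and 5.73 to 7.55, and none of the 8 was high enough to test. Gp9 went against the sum, at 3.63, 3.81 and 3.59 in the retained ex vivo libraries and 5.315, 4.78 and 7.55 in the retained cultured ones. Hbb-bs went with it, at 3.63, 12.7 and 10.8 in the retained ex vivo libraries and 0.0 in the retained cultured ones. The part of all these blood cell markers in the values of the members was not tested. The 10 stromal markers summed to 8.89 to 14.5 and 9.56 to 18.1, and 7 of them, Col1a1, Col1a2, Col3a1, Sparc, Cxcl12, Lepr and Bgn, were at 0 in all 8 libraries. None of the 10 was high enough to test. Fn1 was at 0.0, 0.0 and 0.718 in the retained ex vivo libraries and at 11.7, 6.69 and 5.87 in the retained cultured ones. It read 5.61 in the library labelled ex vivo CLP 2 and 0.0 in that labelled cCLP 1. Vcam1 went the other way (1.21, 2.54 and 2.15 against 0.0 in each). For Pdgfrb the groups overlapped (13.3, 6.35 and 7.89 against 6.38, 2.87 and 5.87).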

How the data were processed

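RNA of sorted cells was made into stranded total RNA libraries from 100 ng after removal of ribosomal RNA and read as pairs of 75 nt, per the labels' protocols. The submitters' processing notes name TopHat2, Bowtie2, HTSeq 1.0.6, GRCm38 and mm10. Their order, the annotation release, any scaling and whether strand was used are not given in the sources used here. The authors deposited 1 whole number per Ensembl gene for each library. The variance between replicates 3 and 4, relative to what counting alone gives, was 0.54 in ex vivo CLP and 0.26 in cCLP, where simulated counts gave 1.03 and 0.991, so they were treated as a deposited score and no count model was used. The number of reads behind them is unknown, and no counting interval is given.

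Of 39179 IDs, 37607 were matched to symbols in GENCODE vM21. Libraries were scaled by a trimmed mean of log ratios (trims of 30% and 5%), and genes with a scaled value of at least 10 in as many libraries as the smaller group were kept. Then limma 3.58.1 (trend, robust) in R 4.3.3 was fitted to log2(scaled value + 1) over all of them, with Benjamini-Hochberg adjustment over all genes and a two-sided threshold of 0.05. Fold changes are on that scale, which understates changes of low genes. Errors of fold changes are SE. Ratios of pairs used an exact permutation test. The members and lists were chosen with earlier results of these data known. Values in every library are given for members called over 6 libraries with a log2 difference of at least 0.5, for both genes of the 6 pairs and for the 3 smallest p over the 8; of the other lists, up to 2 called genes per direction are named, with Myc and Atf4. A gene of these lists that the rule would name is not reported here. Values of Phgdh and Dck were added after they were seen. Alternatives were other scalings (total, median of ratios, upper quartile), no filter, a pseudocount of 5, a replicate block and leaving out each library. The fit was tested on simulated data. No 2 libraries held identical values.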

Additional observations from a re-analysis of the deposited data

Results flagged for a closer look

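In 7 of 74 sets of 4 labelled libraries of a member, the highest library lay further from the others than Dixon's 95% critical value allows. Chance gives about 1 in 20 for independent sets. The 74 sets share the same 8 libraries, so that rate is no measure of these 7. All 7 came from the libraries labelled ex vivo CLP 2 or cCLP 1, which had already been set aside for their whole profile. In the ex vivo CLP group, the library labelled ex vivo CLP 2 had 80.8 for Impdh1, with the others from 15.2 to 24.2. In the cCLP group, the library labelled cCLP 1 was highest in the other 6. It had 42.7 for Prps1 (others 14.3 to 18.2) and 340.0 for Impdh2 (226 to 241). It had 196 for Hprt (139 to 147) and 90.2 for Gart (65.9 to 69.6). It had 54.1 for Ahcy (43.6 to 45.3) and 36.1 for Mthfd1l (29.3 to 29.8). Mthfd1l, Ahcy and Gart were not called over the 6 libraries. The sets of 3 were not examined in this way.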

How the results depend on the processing

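Over the 8 libraries no member and no gene was called under any alternative, the replicate block included; leaving out the library labelled ex vivo CLP 2 together with that labelled cCLP 1 gave 4 members higher and 9 lower, and 1370 and 1481 of all genes. Over the 6 libraries, Mthfd2, Prps1, Adss, Impdh1, Impdh2, Ada, Umps and Cmpk1 were called under each of the 12 alternatives. Leaving out 1 library gave 2 to 7 members higher (7 when ex vivo CLP 1 was left out, and 2 when it was ex vivo CLP 4, cCLP 3 or cCLP 4) and 6 to 10 lower, with 912 to 1626 and 1204 to 1789 of all genes. With no filter, 2238 genes were higher and 2784 lower, with more genes tested.

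No label says that replicate numbers pair the libraries, and the check could not tell. Deviations of same-numbered libraries correlated at 0.594, 0.842, -0.574 and -0.857, but the library labelled ex vivo CLP 2 and that labelled cCLP 1 were kept in the group means. Over the 6 libraries only replicates 3 and 4 have a library in both groups. The block fit therefore rests on ex vivo CLP 3 and 4 against cCLP 3 and 4, with little left to estimate the spread. It gave 3 members higher and 8 lower (1125 and 1304 of all genes), and Atic (adjusted p = 0.158) and Ctps (0.17) lost their calls. Pnp2 (0.341), Dguok (0.0638) and Dut (0.0815), called under every other alternative, lost theirs too. The block also ended the calls of Gcsh (0.158), Amd1 (0.0503), Sms (0.252), Mtap (0.246), Slc38a1 (0.177), Adssl1 (0.436) and Nt5c3b (0.0538), which other alternatives ended as well. Signs turned under the block for Psat1 (-0.002), Gmps (-0.035), Cad (-0.028) and Dctd (0.123), for Cad with the upper quartile (-0.012) and for Dctd with the total (0.032). Leaving out 1 library turned signs with ranges of -0.16 to 0.0 for Adsl, -0.005 to 0.13 for Gmps, -0.044 to 0.163 for Aprt, -0.24 to 0.15 for Cad, -0.171 to 0.063 for Nme2, -0.077 to 0.129 for Dctd and -0.11 to 0.36 for Myc, none of them called. The ratio Shmt2/Shmt1 over the 8 libraries ran from -0.32 to 0.017, positive without ex vivo CLP 4. The cause was not tested. Low values limit Cad, Psph, Mthfd2 and Dhodh.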
